A study of Rattus norvegicus with 6 samples.

Results

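Genomic sites bound by REST that lay between genes and within 100 kb of a transcription start site (TSS) were described in cultured rat neural stem cells. A site was taken as a member when the annotation of the peak tables placed it in intergenic sequence, gave an absolute distance to the nearest TSS of at most 100 kb and named no repeat at its position. This rule used position only and no measured tags. It held for 489 of 1775 REST sites in the quiescent condition (iQNP) and for 236 of 778 in the proliferating condition (TAP). HCN cells are a cloned line of neural stem cells from the adult rat hippocampus, used at multiple passages, so all samples stand for 1 line. FGF2 was present in both conditions: alone it kept TAP cells dividing, and BMP4 was added to it for iQNP. Each condition had 2 ChIP-seq libraries and 1 input library without antibody. One ChIP used a commercial anti-REST antibody (Millipore 17-641) and the other a homemade one (REST14 and REST17, mixed). Labels name no separate cultures, so p-values measure the spread between libraries made with different antibodies.

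REST, also called NRSF, is a zinc-finger repressor that binds a long DNA element called RE1 and recruits corepressors that remove histone acetylation. It is known for holding neuronal genes silent in non-neuronal cells and in neural progenitors, and its targets include ion channels, synaptic proteins and neuronal microRNAs. RE1 elements are often far from promoters, and a site between genes is assigned here to the gene with the nearest TSS, which need not be the gene it regulates. The sequences of the sites themselves were not read, because no sequence of the rn4 genome build used for the coordinates was at hand.

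MicroRNA genes, whose products bind messenger RNAs through the seed (bases 2 to 8), were nearest to 20 iQNP members and 8 TAP members. These sites belonged to 15 microRNA genes, of which 12 had a mature sequence in the RefSeq table (build GRCr8). The 3 without one were Mir124-1, Mir124-2 and Mir124-3, so no form of miR-124 is shown. Among the 12, mature forms are shown for genes with shared or strongly tagged sites and for a pair that share a seed, with the seed in capitals.
miR-3085: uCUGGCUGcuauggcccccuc
miR-137-3p: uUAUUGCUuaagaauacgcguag
miR-9a-5p: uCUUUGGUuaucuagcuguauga
miR-9b-5p: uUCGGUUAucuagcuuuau
miR-129-5p: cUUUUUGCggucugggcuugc
miR-138-5p: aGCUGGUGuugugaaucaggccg
miR-350: uUCACAAAgcccauacacuuucac
miR-135a-5p: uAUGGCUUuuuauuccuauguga
miR-135b-5p: uAUGGCUUuucauuccuauguga
Mir9-3 makes miR-9a-5p and Mir3597-1 makes miR-9b-5p, which have different seeds in these sequences. Both Mir129-1 and Mir129-2 make miR-129-5p, while the forms of Mir135a and Mir135b share the seed AUGGCUU.

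Enrichment was measured as normalized tags, the number of ChIP tags in a window at the peak scaled to 10000000 tags per library. The libraries held about 25200000 to 29800000 tags and their windows were 166 to 174 bp wide, so that sites of a library could be compared with each other. Over the iQNP members, normalized tags ran from 4.26 to 327.8 with a median of 22 with the commercial antibody, and from 4.36 to 191 with a median of 17.1 with the homemade antibodies. In TAP they ran from 5.44 to 168.4 with a median of 14.2, and from 4.76 to 123.1 with a median of 12.7. The median iQNP member rested on 63 and 51 total tags with the 2 antibodies, and the lowest on 12 and 13. The commercial antibody gave the higher value at 87.1% of iQNP members and 72.5% of TAP members. Across the 489 iQNP members, which share their libraries, the log2 tags of both antibodies had a Pearson correlation of 0.95. The sites had been called as peaks over input, so a high fold over input was part of their choice. The fold was at least 4.01 at every iQNP member and at least 4.05 at every TAP member. Its medians were 22.8 and 18 in iQNP and 18.1 and 15.2 in TAP.

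The 5 most strongly tagged iQNP members were nearest to Igsf21, Cacng2, Kcnk9, RGD1559613 and Mir3085. The site with the most tags in iQNP was on chromosome 5 from 159159588 to 159159639 (rn4), 11569 bp upstream of Igsf21, a synaptic adhesion protein of the immunoglobulin superfamily. With the commercial and homemade antibodies it had 327.8 and 185.0 normalized tags in iQNP, and in TAP it had 139.6 and 100.8. Next came a site on chromosome 7 from 116038861 to 116038926, 1003 bp upstream of Cacng2, which encodes stargazin, an auxiliary subunit of AMPA receptors. Its values were 316.1 and 191.0 in iQNP and 191.0 and 141.0 in TAP. A site on chromosome 7 from 110287868 to 110287922, 20349 bp upstream of the potassium channel gene Kcnk9, had 290.2 and 185.0 in iQNP and 168.4 and 117.1 in TAP. All these values were higher in iQNP with either antibody, and among these 3 sites the conditions touched at Cacng2, where the homemade iQNP library equalled the commercial TAP library. The site 16556 bp upstream of RGD1559613 had 273.1 and 175.6 normalized tags in iQNP against 122.1 and 107.6 in TAP. The site 21307 bp downstream of Mir3085, the gene of miR-3085 shown above, had 239.4 and 145.0 in iQNP and 150.9 and 123.1 in TAP, with overlap between the conditions. The same sites led the TAP members, except that Cacng2 was replaced: its TAP peak was annotated 1000 bp from the TSS and so as a promoter site, and a site 73436 bp upstream of Rbfox3 in iQNP, whose product is the neuronal marker NeuN, completed the leading TAP sites with 103.8 and 79.4 in TAP.

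Whether these leading sites differed between conditions depended on the spread allowed for antibodies and on the scaling. Total tags were compared by the quasi-likelihood test of edgeR, with the library depths as scaling and Benjamini-Hochberg adjustment over all 756 shared sites. The log2 change from TAP to iQNP was 1.09 at Igsf21 (adjusted p = 0.0565), 0.61 at Cacng2 (0.261), 0.73 at Kcnk9 (0.18), 0.96 at RGD1559613 (0.0834), 0.49 at Mir3085 (0.36) and 0.91 at Rbfox3 (0.0907), by edgeR, so none passed the threshold of 0.05. With the antibody added as a replicate block in edgeR, the adjusted p was 5.31e-05 at Igsf21, 0.0269 at Cacng2, 0.0046 at Kcnk9, 0.000137 at RGD1559613, 0.0507 at Mir3085 and 4.61e-05 at Rbfox3. Relative to the median log2 ratio of all shared sites, Cacng2 was 0.46 lower and Mir3085 was 0.59 lower, while Igsf21 was within 0.02 of it. With TMM normalization, described below, edgeR gave log2 changes of -0.46 at Cacng2 (adjusted p = 0.0396) and -0.59 at Mir3085 (adjusted p = 0.00539), with more tags in TAP. It gave -0.33 at Kcnk9, -0.10 at RGD1559613, -0.15 at Rbfox3 and 0.015 at Igsf21, and none of these passed the threshold. The Cacng2 and Mir3085 sites both carried the CpG label described further on.

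**Figure D1:**
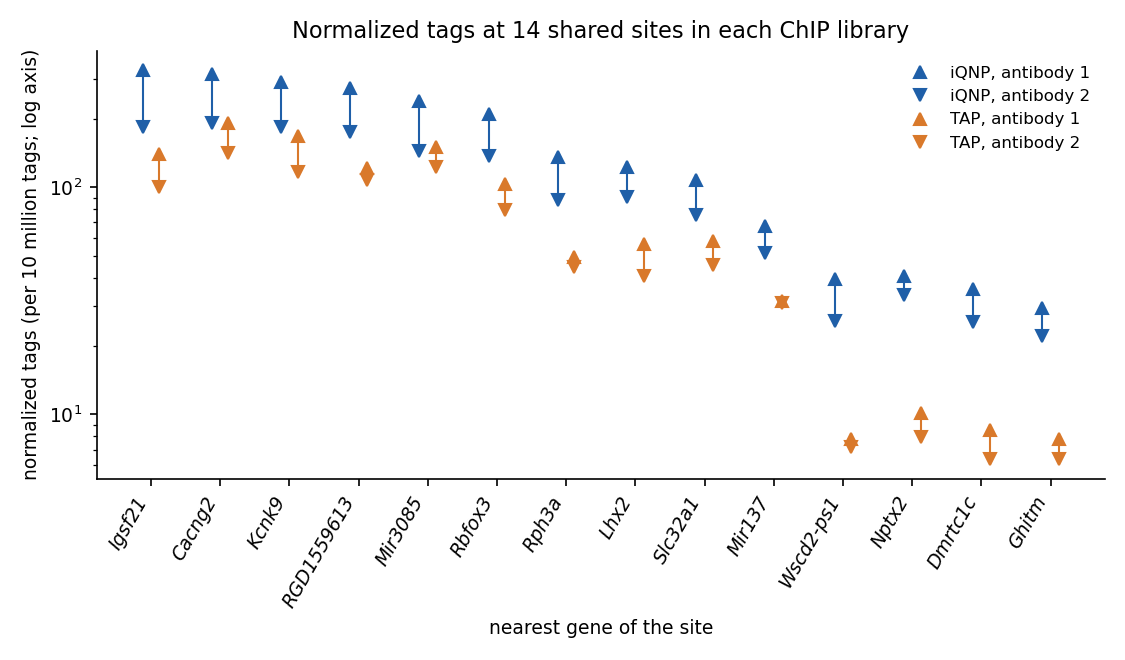
Normalized tags per 10000000 tags (log axis) in each of the 4 ChIP libraries at shared sites named for their nearest gene, with iQNP in blue and TAP in orange and with up and down triangles for the commercial (1) and homemade (2) antibodies. The conditions overlap at Mir3085 and touch at Cacng2, and at the other sites both iQNP values lie above both TAP values.

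A TAP counterpart was found for 47.2% of the iQNP members. The sites of each condition were peaks found with both antibodies, so a TAP peak found with only 1 antibody was not counted. An iQNP and a TAP site were paired when their centres were within 50 bp, and this held for 231 of 489 (95% Wilson interval 42.9 to 51.7, counting error only), with a median of 11 bp between centres. Of their partners, 230 were TAP members and 1 was the Cacng2 promoter site. In the other direction 231 of 236 TAP members had an iQNP site. The share was 44.0% (39.1 to 49.0) for intergenic sites over 100 kb from a TSS, 51.6% (46.9 to 56.3) for intron sites, 24.0% (19.3 to 29.6) for promoter-TSS sites and 27.9% (20.9 to 36.2) for sites in repeats. The intervals of the promoter-TSS and repeat classes lay below that of the members, and those of the intron and far intergenic classes overlapped it.

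**Figure D2:**
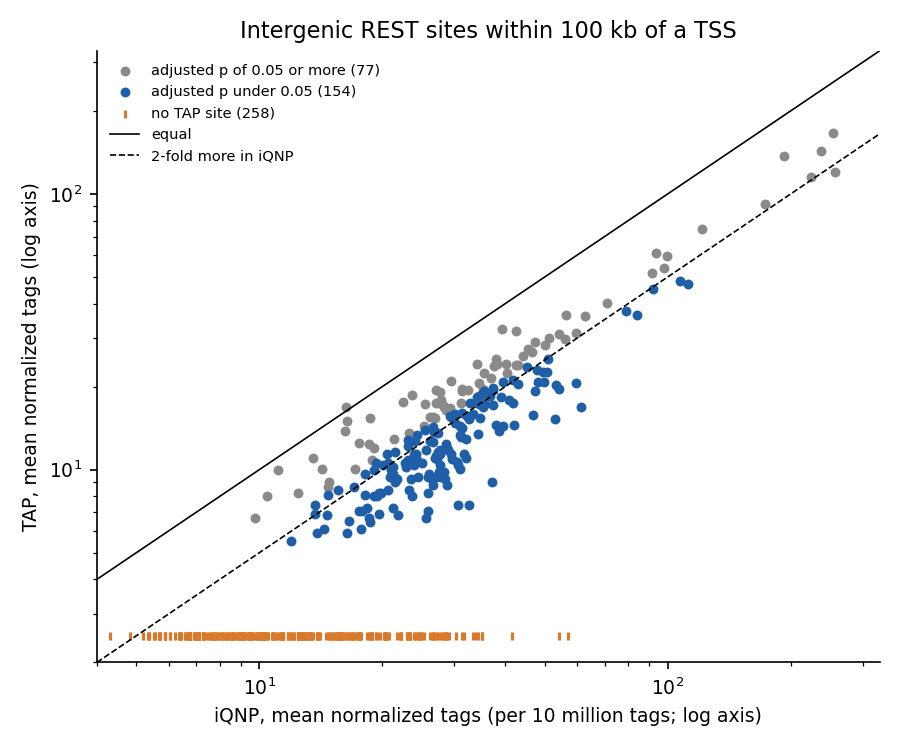
Mean normalized tags of the members in iQNP (horizontal) and TAP (vertical), both on log axes, with orange marks at the bottom for the 258 iQNP members without a TAP site. Of the 231 shared members, the 154 in blue had an adjusted p under 0.05 and the 77 in grey did not; all but 1 lie below the line of equal tags.

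Members with a TAP site had more tags in iQNP than those without. The median of normalized tags was 28.6 with and 11.4 without a TAP site, a difference of 1.33 ± 0.08 on the log2 scale (SD between the 2 antibodies). The commercial antibody alone gave 1.33 and the homemade ones 1.22. Both groups had a median of 2.9 scaled input tags and had 67.1% and 68.2% of sites upstream. No iQNP member with up to 8 mean normalized tags had a TAP site (0 of 60, 95% Wilson interval up to 6.02%), and 4 of 79 with 8 to 12 tags had one. The share was 39 of 112 members with 12 to 20 tags, 84 of 123 with 20 to 30, 73 of 82 with 30 to 50 and 31 of 33 with over 50. At all other iQNP sites the share in the same classes rose from 1 of 174 to 67 of 81, with intervals that overlapped those of the members in each class. TAP members had at least 5.49 mean normalized tags, and tags in TAP at sites without a TAP peak were not analysed here.

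**Figure D3:**
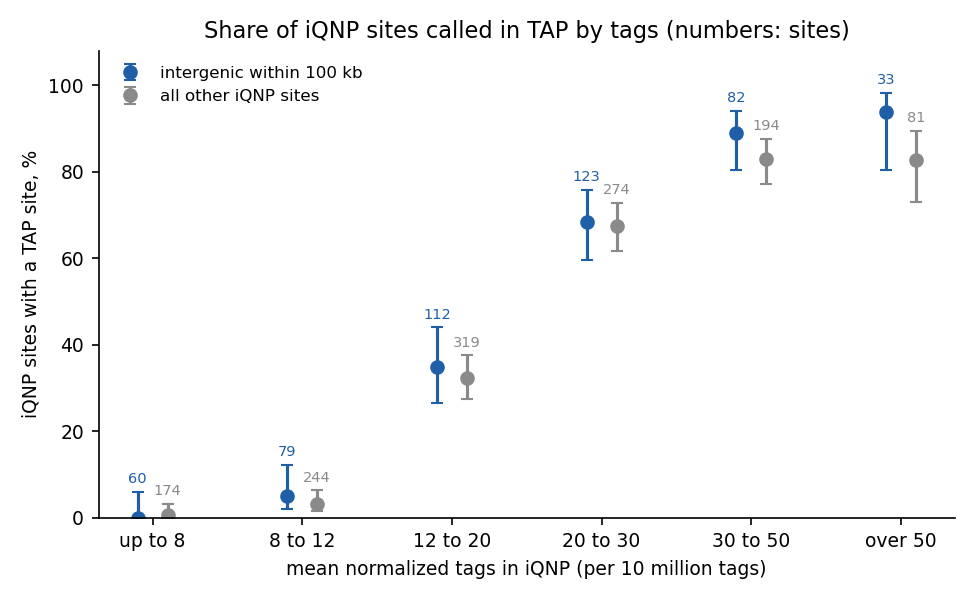
Percent of iQNP sites with a TAP site within 50 bp by class of mean normalized tags in iQNP, for members (blue) and all other iQNP sites (grey), with 95% Wilson intervals and the number of sites above each. Both series climb up to the class of 30 to 50 tags. From there to over 50 tags the members go from 89.0% to 93.9% and the other sites from 83.0% to 82.7%.

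The strongest iQNP members without a TAP site were near neuronal genes and a ubiquitin enzyme gene. The site 38627 bp upstream of Cacng5, of the same family of AMPA receptor subunits as Cacng2, had 70.6 and 43.6 normalized tags. A site 22872 bp upstream of Mir124-1, a gene of the neuronal microRNA miR-124, had 49.3 and 33.6. Unc13a, whose product primes synaptic vesicles, had a site 60075 bp upstream with 38.7 and 31.6, and Npas4, an activity-induced transcription factor, had one 2542 bp upstream with 44.0 and 26.2. The site 1159 bp upstream of Ube2d3, a ubiquitin-conjugating enzyme, had 51.8 and 56.4 and differed from the others in its input. Scaled from the 1 iQNP input library to each ChIP library, its input was 17.9 and 17.0 tags against 147 and 168 total ChIP tags. This was the most input of any iQNP member, and the ChIP was 8.19 and 9.91-fold over input. The other 4 sites had 0.9 to 4 scaled input tags.

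The 5 TAP members without an iQNP site were weakly tagged except one. The site 74362 bp downstream of Adm, the gene of the vasodilator peptide adrenomedullin, had 25.3 and 17.5 normalized tags, and the nearest iQNP site was 1339 kb away. The sites near Pou3f1, a POU-domain transcription factor, near Tmem132d and near Odf3l1 had 10.1 and 8.74, 5.44 and 7.54, and 9.72 and 9.93 normalized tags. The TAP site 19253 bp downstream of Grk1, the rhodopsin kinase gene, had 12.4 and 9.93, and an iQNP member with a mean of 23.4 had its centre 53 bp away, just past the limit of 50 bp.

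At shared members the tags were higher in iQNP. The log2 ratio of normalized tags (iQNP over TAP), averaged over the antibodies, had a median of 1.02 ± 0.17 (SD between the antibodies), with 1.13 for the commercial and 0.89 for the homemade antibodies. The quartiles of the members were 0.78 and 1.28. The ratio was above 0 with both antibodies at 226 of 231 members, of opposite sign at 4 and tied with one antibody at 1; none was below 0 with both. Both iQNP libraries lay above both TAP libraries at 215 of 231 members, against 92.7% of all shared sites. By edgeR's quasi-likelihood test, 154 of 231 members (66.7%) passed an adjusted p of 0.05 with the higher tags in iQNP, against 68.4% of all 756 shared sites. In the direction of TAP 0 members passed by edgeR, 0 reached an unadjusted p of 0.05 and 0 were called by DESeq2 with the same depths. With the antibody as a replicate block the count was 217, against 94.8% of all shared sites.

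The count rested on the TAP libraries and on the scaling. Without either TAP library 0 members were called, in the lists below as well, while 124 were called without the commercial and 216 without the homemade iQNP library. TMM normalization over the shared sites, which takes their typical change as 0, moved the median log2 change of all shared sites by 1.06, and 7 of 231 members (3.03%) then had more tags in iQNP, against 5.16% of all shared sites. Under TMM 16 members (6.93%) had more in TAP, against 6.75% of all shared sites. Taken from the fold over input, the comparison gave a median log2 ratio of 0.73 at the members. No tags from an outside reference were measured, so a change common to all sites and a difference in the efficiency of the ChIP cannot be told apart.

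Among the largest changes past the threshold with the same direction for both antibodies were those at 4 members upstream of their genes. The site 5068 bp upstream of Wscd2-ps1 had 39.4 and 25.9 normalized tags in iQNP against 7.78 and 7.15 in TAP, a log2 change of 2.12 (edgeR, adjusted p = 7.98e-05). The site 65502 bp upstream of Nptx2, a neuronal pentraxin of excitatory synapses, had 40.8 and 33.6 in iQNP and 10.1 and 7.94 in TAP (log2 change 2.04, edgeR, adjusted p = 0.000134). The groups were far apart at both sites. A site 63683 bp upstream of Dmrtc1c had 35.8 and 25.5 against 8.56 and 6.35 (2.03, edgeR, adjusted p = 0.000105). The site 97125 bp upstream of Ghitm, a protein of the inner mitochondrial membrane, had 29.4 and 22.2 against 7.78 and 6.35 (1.87, edgeR, adjusted p = 0.000198). These 4 were also called with TMM, as were sites near Rtbdn and Nsun2, the last of these an RNA methyltransferase gene. Without the commercial TAP library the log2 changes at Wscd2-ps1, Nptx2, Dmrtc1c and Ghitm were 2.18, 2.22, 2.26 and 2.02. Without the homemade one they were 2.06, 1.88, 1.83 and 1.73. Such a fit holds 1 TAP library, so it measures no spread within TAP.

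The members called with more tags in TAP under TMM were picked out after their values were seen. Because TMM moved the median log2 change by 1.06, these members had to be among those with the smallest change on the scale of depths. They included both Nefh sites, for the heavy neurofilament subunit, and sites near Gad1, which makes the transmitter GABA, the proneural factor gene Neurod2, the orphan receptor gene Nr2f1, Lin28a, Mir3085 and Mir3597-1. Normalized tags near Gad1 were 16 and 11.1 in iQNP and 12.1 and 9.93 in TAP, and the log2 ratio was 0.28 ± 0.17. Near Nr2f1 they were 13.8 and 8.39 against 12.4 and 7.54, a ratio of 0.15. The 4 shared members with 8 to 12 mean normalized tags in iQNP had a median ratio of 0.41, against 0.97 with 12 to 20. The single member with a ratio below 0 was 63344 bp downstream of Rnf219, with 13.8 and 18.8 in iQNP and 18.3 and 15.5 in TAP, and its antibodies went in opposite directions.

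Members lay mostly upstream of the nearest gene. In iQNP 331 of 489 (67.7%, 95% Wilson interval 63.4 to 71.7) and in TAP 157 of 236 (66.5%, 60.3 to 72.2) were upstream, against 49.2% of iQNP intergenic sites over 100 kb away. Sequence up to 100 kb downstream of a TSS is often the gene itself, so an intergenic site there must lie past the gene's end. Upstream members had a median distance of 16.5 kb and downstream ones 48.7 kb in iQNP. Within 10 kb the upstream share was 90.6%. Of the upstream members 81 were within 5 kb and 69 were between 50 and 100 kb, while 4 and 75 of the downstream members were. The nearest members to a TSS were those of Cacng2 and, at 1016 bp, of Cacng3, and the farthest were 97717 bp upstream of Mkln1 and 97861 bp downstream of Crygf. Just past the limit lay sites at 100124 bp from Ncs1 and 100463 bp from Sgsm1, with means of 30.9 and 42.2 normalized tags in iQNP against 6.74 near Mkln1 and 11.3 near Crygf.

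The median change between conditions was larger in the class of members farthest from a TSS, as a description over sites that share 4 libraries. The median log2 ratio was 0.90 for the 71 shared members within 10 kb, 0.94 for the 91 between 10 and 50 kb and 1.18 for the 69 between 50 and 100 kb. The order held with the commercial antibody (1.08, 1.08 and 1.25) and the homemade antibodies (0.78, 0.88 and 1.01), although with the commercial antibody the first 2 classes differed little. By edgeR's test 42 of 71, 55 of 91 and 57 of 69 members were called in these classes, against 68.4% of all shared sites. With the block the counts were 65 of 71, 86 of 91 and 66 of 69, against 94.8%. Nearly all sites were called with the block, so these counts had little room to show a rise with distance. Upstream and downstream members over 50 kb away had medians of 1.18 and 1.17. The shared members of the 3 classes had medians of 29.5, 28.6 and 27.2 normalized tags in iQNP. In the whole series the medians were 0.86 at promoter-TSS sites, 1.02 at the members, 1.03 at intron sites, 1.18 at intergenic sites over 100 kb away and 1.26 in repeats. Across the 231 shared members, distance and log2 ratio had a Spearman rho of 0.18, with 0.15 and 0.16 for the 2 antibodies alone. Between 25 and 50 kb upstream, 20 of 69 iQNP members had a TAP site, the lowest share of the upstream classes, and their median in iQNP was also lowest at 13.3 normalized tags.

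**Figure D4:**
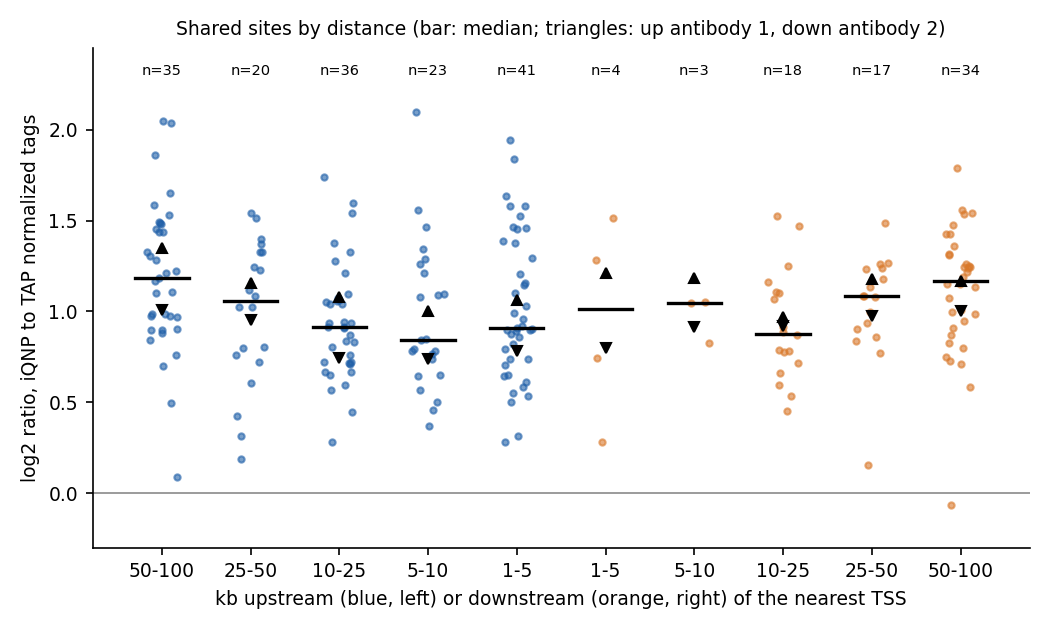
Log2 ratio of normalized tags (iQNP over TAP) at each shared member by distance to the nearest TSS in kb, upstream in blue and downstream in orange, with bars for medians and triangles for the medians of each antibody. Medians over 50 kb are 1.18 upstream and 1.17 downstream, and the scatter within each class is wider than the steps between classes.

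A smaller share of CpG-labelled members had a TAP site, with intervals that did not overlap. The detailed annotation marked 46 of the 489 iQNP members as CpG sequence. Of these 13 (28.3%, 95% Wilson interval 17.3 to 42.5) had a TAP site, compared with 218 of 443 without the label (49.2%, 44.6 to 53.9). CpG members had a median of 16.1 normalized tags in iQNP against 19.7, and the same median of 2.9 scaled input tags. At the 13 shared ones the log2 ratio had a median of 0.61 (antibodies 0.76 and 0.46), against 1.05 at the others (1.16 and 0.92). With edgeR 4 of 13 were called on the scale of depths, against 68.4% of all shared sites, and 11 of 13 with the block, against 94.8%. Of the 13, 6 were among the 16 members with more tags in TAP under TMM. CpG members were nearer to a TSS, at a median of 11.2 against 29.9 kb. Without the CpG members the medians of the 3 distance classes were 0.91, 1.00 and 1.19.

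Several genes had more than one member. In iQNP the members belonged to 437 gene names, of which 395 had 1 member, 36 had 2 and 6 had 3; in TAP 215 names were found, 16 with 2 members and 2 with 3. Among the genes with 2 iQNP members, both had a TAP site at 12, one had at 16 and none had at 8. Slc32a1, the vesicular GABA transporter, had 3 members upstream at 41117, 26979 and 16542 bp, all with a TAP site. Their normalized tags were 107.5 and 75.2, 56.4 and 42.3, and 20.9 and 14.1 in iQNP against 58.3 and 45.3, 23.7 and 21.4, and 7 and 7.15 in TAP. The order was the same in all 4 libraries, and no values of the conditions overlapped within a site. The 3 Slco2b1 members, near an organic anion transporter gene, also had TAP sites, and a pair of them were 628 bp apart. Igsf21 and Rbfox3 each had 1 dominant member and 2 weaker ones, at means of 32.0 and 14.6 normalized tags for Igsf21 and 26.6 and 8.86 for Rbfox3. At Igsf21 the weakest had no TAP site, and at Rbfox3 neither weaker one had. Ipmk and Mrm1 had 3 members downstream each, of which 2 had a TAP site. In total 61 iQNP members (24 in TAP) had another REST site of their condition within 10 kb.

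The nearest genes were grouped in lists by function, and 182 of the iQNP members were near a gene of any list. Of these 105 (57.7%) had a TAP site, as did 126 of 307 near genes of no list (41.0%), and their medians in iQNP were 23.8 and 17.7 normalized tags. The lists were drawn up with earlier results and the sites' gene names known, so the counts describe the members and give no evidence on the lists. The median log2 ratio was 1.03 in the lists and 1.01 outside them. In the lists 72 of 105 shared members were called (99 with the block), and outside them 82 of 126 (118 with the block). The counts of each list are to be read against the shares called among all shared sites, 68.4% by edgeR and 94.8% with the block.

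**Figure D5:**
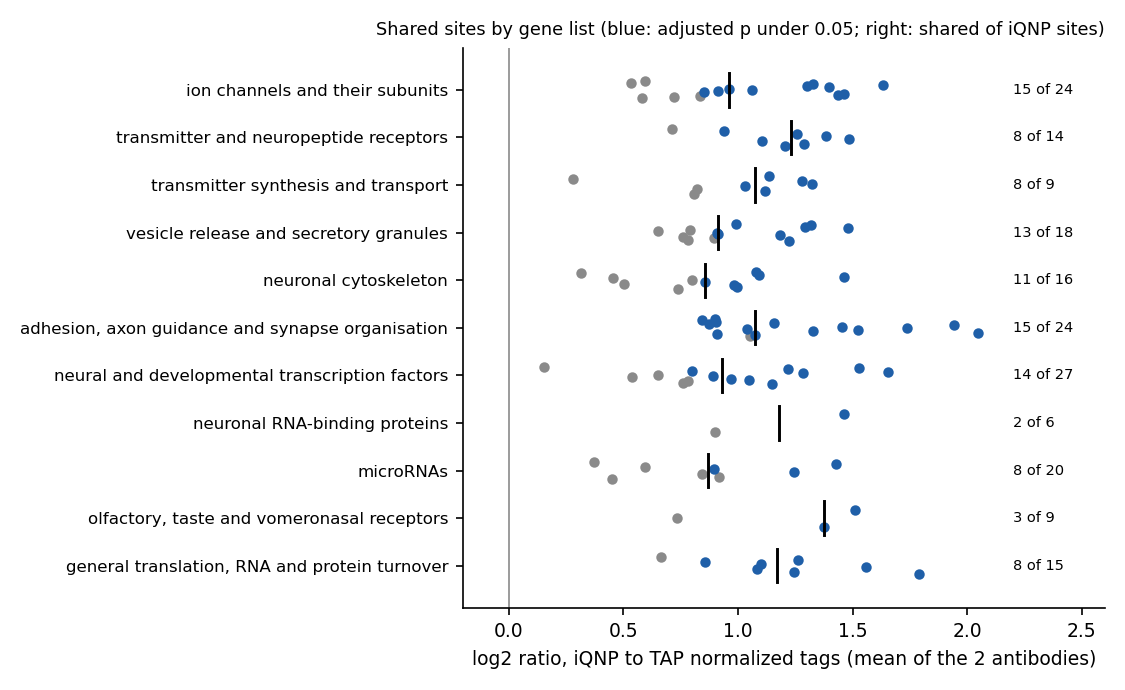
Log2 ratio of normalized tags (iQNP over TAP), averaged over the antibodies, at each shared member by gene list, blue where the adjusted p of edgeR was under 0.05, with a bar at the median and the number shared of iQNP members at the right. List medians run from 0.86 for the neuronal cytoskeleton to 1.37 for the olfactory, taste and vomeronasal receptors, which has 3 shared sites.

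Ion channels, which carry membrane currents, were nearest to 24 iQNP members, all of them upstream. A TAP site was found for 15, and 10 of these were called with more tags in iQNP (14 with the block), a share near the 68.4% and 94.8% of all shared sites, at a median log2 ratio of 0.96. TMM gave 0 ion channel sites with more tags in iQNP and 1, Cacng2, with more in TAP. The receptors of transmitters and neuropeptides had 14 members, of which 8 had a TAP site and 7 were called (8 with the block; 0 with TMM), at a median of 1.23. The site 1517 bp upstream of the serotonin receptor gene Htr1a had 53.2 and 48.0 normalized tags against 28 and 17.1, and the one 5986 bp upstream of the melanocortin receptor gene Mc3r had 53.6 and 46.0 against 25.3 and 16.3. At Gabbr2, a subunit of the GABA-B receptor, 1436 bp upstream, values of 44.3 and 33.9 in iQNP stood against 15.2 and 21.4, and the antibodies gave different sizes of change (0.62 SD).

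For transmitter synthesis and transport 8 of 9 members had a TAP site, the highest share of any list, and 5 were called (7 with the block), at a median of 1.07. Besides Slc32a1, the site 1652 bp upstream of Slc12a5, the neuronal chloride exporter, had 50 and 30.9 normalized tags against 24.9 and 19.9. TMM gave 0 with more tags in iQNP and 1, Gad1, with more in TAP. The list of vesicle release and secretory granules had 18 members, 13 with a TAP site, and 8 were called, or 13 with the block, 4 without the commercial and 13 without the homemade iQNP library, and 0 with TMM. The strongest lay 62758 bp upstream of Rph3a, a Rab-binding protein of synaptic vesicles, with 135.5 and 88.3 against 49.4 and 44.5. Sncb, for beta-synuclein, had a site 15881 bp downstream with 89.0 and 53.0 against 44.7 and 35.7, and Erc2, of the presynaptic active zone, one 64826 bp upstream with 66.7 and 45.0 against 34.6 and 25. At these 3 sites both iQNP values were above both TAP values, as at 92.7% of all shared sites. By edgeR only Rph3a of the 3 was called, with an adjusted p of 0.02, against 0.0899 at Sncb and 0.0523 at Erc2.

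The neuronal cytoskeleton list had the lowest median log2 ratio, 0.86, with 1.10 for the commercial and 0.57 for the homemade antibodies. Of its 16 members 11 had a TAP site; 6 were called with more tags in iQNP, or 10 with the block and also without the homemade iQNP library, and TMM gave 0 with more in iQNP and 2, both at Nefh, with more in TAP. The strongest was 2294 bp upstream of Crmp1, a mediator of semaphorin signals, with 55.7 and 32.9 against 29.6 and 22.2. It was followed by Dynll2, a dynein light chain, with 39.7 and 33.6 against 16.3 and 20.6, and Map9, a microtubule-associated protein, with 38.3 and 30.6 against 17.1 and 17.5. The antibodies differed in direction at 2 sites of this list. Upstream of Ina, for the neurofilament protein alpha-internexin, values of 36.5 and 18.8 in iQNP stood against 19.1 with both antibodies in TAP, and at the Nefh site 4514 bp upstream 27.7 and 19.5 stood against 17.5 and 19.9.

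The list of adhesion, axon guidance and synapse organisation had 24 members, of which 15 had a TAP site, and edgeR called 14 of the 15 (15 with the block), with the dominant Igsf21 site as the exception, against 68.4% of all shared sites (94.8% with the block). Both iQNP values exceeded both TAP values at all 15, against 92.7% of all shared sites, and the median was 1.07. TMM gave 2, Nptx2 among them, with more in iQNP. After Igsf21 came a site 13025 bp upstream of Nrxn3, a presynaptic neurexin, with 93.6 and 64.5 against 43.9 and 31. The site assigned to Pcdhac2, of the clustered protocadherins, was 93997 bp downstream and had 40.8 and 33.9 against 19.4 and 20.2. Among neural and developmental transcription factors 14 of 27 members had a TAP site and 9 were called (13 with the block), at a median of 0.93, and with TMM 0 had more in iQNP and 2, near Neurod2 and Nr2f1, had more in TAP. The LIM-homeobox gene Lhx2 had the strongest site, 88586 bp downstream, with 123.1 and 90.7 against 56.0 and 40.5. Myt1, a zinc-finger factor of neuronal differentiation, had 60.3 and 42.3 against 33.4 and 26.6, and Lhx5 had 52.9 and 40.0 against 26.1 and 27.4. The 3 weakest sites of the list, near Zic1, Klf7 and Six3, had no TAP site and at most 7.8 normalized tags, while another site near Klf7 was shared.

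Neuronal RNA-binding protein genes had 6 members, of which the strong Rbfox3 site and 1 near Elavl2 had a TAP site; the latter was called, and both with the block or without the homemade iQNP library. The Elavl2 site had 29.1 and 22.5 normalized tags in iQNP against 7.78 and 11.1 in TAP. Of the 20 microRNA members 8 had a TAP site, and 3 of these, near Mir124-1, Mir129-2 and Mir350, were called with more tags in iQNP (6 with the block, and also without the homemade iQNP library), at a median of 0.87. TMM gave 0 with more in iQNP and 2, Mir3085 and Mir3597-1, with more in TAP. The site 2290 bp upstream of Mir137 had 67.8 and 51.4 normalized tags against 31.5 and 31, and the stronger of 2 sites near Mir9-3, at 5849 bp, had 48.6 and 37.3 against 26.8 and 21. The other Mir9-3 site had 13.5 and 8.06 and was among the 12 microRNA sites without a TAP peak. The miR-124 genes had 5 members, at Mir124-1, Mir124-2 and Mir124-3, of which only the Mir124-1 site at 47568 bp was in TAP, with 34.1 and 28.2 against 14.4 and 11.9. The genes of miR-135a and miR-135b, which share a seed, each had 1 member without a TAP site, with 13.8 and 11.8 and with 5.32 and 5.04 normalized tags.

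In the list of olfactory, taste and vomeronasal receptor genes there were 9 members, and 3 had a TAP site. These were upstream of Olr7, with 66.0 and 40.6 normalized tags in iQNP against 23.3 and 17.1 in TAP, upstream of Olr1523, with 37.6 and 27.2 against 22.6 and 16.3, and downstream of Olr1463, with 32.3 and 24.2 against 9.33 and 10.3; the first and last were called (0 with TMM). Tas2r140, a bitter taste receptor gene, had a site with 31.6 and 34.9 and no TAP site. The list of general translation, RNA and protein turnover had 15 members, 8 with a TAP site, of which 7 were called (8 with the block; 1, at Nsun2, with TMM). The Nsun2 site, 67406 bp downstream, had 60.3 and 45.7 normalized tags against 17.1 and 13.5. Lsm5, of the complex that binds U-rich RNA ends, had 62.4 and 31.9 against 22.9 and 15.5, and the RNA-binding protein gene Ybx1 had 36.2 and 28.9 against 16.3 and 14.3. Tipin, whose product acts at replication forks and which the study took up by name, had a site 6486 bp upstream with 9.22 and 11.4 normalized tags and no TAP site. This site was weakly tagged, and only 4 of 79 members with 8 to 12 mean normalized tags had a TAP site. For Tipin the paper also reported REST binding by ChIP-qPCR and more mRNA after REST knockdown in iQNP.

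Input was low at nearly all members. The 2 input values given for a site come from the 1 input library of its condition, scaled to each ChIP library, and are not independent. The median scaled input was 2.9 tags per window in iQNP, beside 63 and 51 total ChIP tags, and 2.25 in TAP. Besides Ube2d3, the highest input in iQNP was at the strongest Slc32a1 site (10.4 and 10.0) and at Kif3b, a kinesin gene (9.4 and 10.0), where normalized tags were 14.2 and 17.8. In TAP it was highest near Ogdhl (10.0 and 8.9), Rps19bp1 (7.2 and 7.1) and Sncb (7.2 and 6.2). The Slc32a1 site had 3.6 and 3.5 scaled input tags in TAP, so that its high input was seen in 1 condition.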

How the data were processed

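REST ChIP-seq of HCN cells was taken from the deposited peak tables of iQNP and TAP, with 2 ChIP libraries and 1 input per condition. Per the submitters' processing notes and the paper's methods, the authors used Bowtie2 for alignment to the rn4 build and HOMER for peaks over input. Only peaks common to the 2 antibodies were kept, as 1 merged set per condition. Versions were not given in the sources used here. The authors deposited total tags per peak as counts, normalized tags and scaled input tags as signal, the fold of ChIP over input as a ratio, and its p-value. Libraries numbered 1 and 2 in the tables were taken as antibodies 1 (commercial) and 2 (homemade) of the labels. Class, nearest gene and distance came from the authors' annotation, joined by peak name; 1 repeated line per condition was dropped, 4 iQNP members had no gene name, and 2 had names turned into dates. The members and gene lists were chosen with earlier results of these data known.

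Library depths were recovered from the ratio of total to normalized tags. Sites were paired one to one, closest first, with centres within 50 bp. Total tags at all 756 shared sites were tested with edgeR 4.0.16 (R 4.3.3) by quasi-likelihood. The model held condition only, with depths as library sizes and Benjamini-Hochberg adjustment over all shared sites. The script was tested on simulated data in which 200 of 756 sites changed by 2 on the log2 scale, in either direction. A shift common to all sites was not simulated. With 2 libraries against 2, the smallest two-sided p of an exact permutation is 1 in 3. The replicate number is the antibody in both conditions and so pairs libraries by reagent. Deviations of the pairs correlated at 0.0443 across shared sites, a value that cannot show an antibody offset common to all sites. Sites are not replicates, so shares have 95% Wilson intervals (scipy 1.17.1) and no test.

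Alternatives were TMM, DESeq2 1.42.0 with depths or its own size factors, the antibody as a replicate block, a minimum of 20 tags, the window width in the offset, other pairing distances and distance limits, stricter p and fold limits, fold over input, tags per base, either antibody alone, included repeats, and leaving out each library. Named sites were those with the most tags in each condition, the largest change past the threshold, the most tags without a counterpart, the most input, the edges of the distance rule, genes with at least 3 members, the 3 strongest and any with opposite antibodies in each list, and Tipin; others were chosen after their values were seen, and some sites that met the rule are not reported here. MicroRNA sequences came from RefSeq (GRCr8).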

Additional observations from a re-analysis of the deposited data

How the results depend on the processing

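The count of 154 called members depended on the scaling and on the TAP libraries. With TMM over the shared sites 7 members had more tags in iQNP and 16 in TAP, and the median log2 ratio of the members was -0.041; DESeq2 with its own size factors gave 0 and 1, with no adjusted p at 88 members. TMM left 0 sites with more tags in iQNP in every list but adhesion (2) and translation (1), and DESeq2's own size factors left 0 in every list. With TMM the log2 change was -0.46 at Cacng2, -0.33 at Kcnk9, -0.10 at RGD1559613, -0.59 at Mir3085 and -0.15 at Rbfox3, and with DESeq2's own size factors the values were -0.46, -0.33, -0.10, -0.59 and -0.15. With the antibody as a replicate block 217 members were called. Leaving out 1 library gave 0 to 216 called members, with 0 without either TAP library. Other values that moved were the median log2 ratio by fold over input (0.73), the share with a TAP site for centres within 25 bp (41.3%), the upstream share within 10 kb and 50 kb (90.6% and 75.9% in iQNP, 90.0% and 73.3% in TAP), the difference between members with and without a TAP site by fold over input (1.06) and with the homemade antibodies (1.22), and the correlation of the antibodies by fold over input (0.91) and without the 5% of members with the most tags (0.92). The minimum of 20 tags removed no site. The cause of these differences was not tested. Depth limits the weakest members, which rested on 12 and 13 tags, and with 1 library per antibody and condition no spread between cultures was measured.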
